A study of Mus musculus with 10 samples.

Results

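The cytosolic and endoplasmic reticulum (ER) heat shock proteins were followed here as 10 genes: the Hsp70 genes Hspa8, Hspa1a, Hspa1b and Hspa5, the Hsp110 genes Hsph1 and Hspa4, the Hsp90 genes Hsp90aa1 and Hsp90ab1, and the J-domain genes Dnaja1 and Dnajb1. They were listed by name, and every probe set annotated to a single one of these symbols was taken, which gave 27 probe sets for 9 of the 10 genes, of 18193 genes named on the array. Hsp90ab1 had no probe set under its symbol in the annotation used here and is not analysed here. The study compared gene expression in stem cells of adult mice with and without Mll, which is now named Kmt2a and encodes an enzyme that methylates histone H3.

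Each of 10 arrays held RNA from sorted bone marrow cells of a female mouse aged 8 weeks on a B6.SJL-Ptprca Pep3b/BoyJ background. The 5 Mll-deficient mice had the genotype Mx1-cre;Mll F/F, and the 5 controls were Mll F/F without cre, so effects of cre itself and of Mll loss cannot be told apart. Both groups were given pI:pC (polyinosinic:polycytidylic acid, an interferon inducer) in 3 injections at intervals of 48 hours, each made up of 50 µg and a further 10 µg for every gram the mouse weighed. Mx1-cre is driven by an interferon-responsive promoter that is active in many cell types, so deletion is not restricted to stem cells. On day 6 the LSK/CD48- fraction of the marrow was collected (lineage-negative, Sca-1-positive, Kit-positive, CD48-negative), a fraction enriched for stem cells. RNA from 1500 to 10000 cells was amplified before hybridisation. In such bulk samples, fewer cells of a type and less RNA per cell cannot be told apart.

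Heat shock proteins are molecular chaperones: they bind unfolded stretches of other proteins, keep them from aggregating and help them fold or be degraded. An Hsp70 protein holds its substrate through a cycle of ATP binding and hydrolysis, in which J-domain proteins deliver substrates and stimulate hydrolysis, Hsp110 proteins and Bag proteins exchange the nucleotide, and Hsp90 takes over many signalling proteins and hormone receptors for late folding steps. Some members are made at all times and others chiefly after heat or other proteotoxic stress, when heat shock factor 1 binds heat shock elements, repeats of GAA and its complement TTC. The ER member Hspa5 is instead raised by the unfolded protein response, through elements that pair a CCAAT box with CCACG.

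The start-site sequences of members that differ in these elements are given first. They are those of Hsph1, of a pair that the array can hardly separate (Hspa1a and Hspa1b) and of the ER member. Whether these elements have a part in the differences between the groups was not tested. RefSeq windows of the GRCm38.p6 build, from 250 bases before to 50 bases after an annotated start, were found for 7 of the 10 members, with 11 starts in all. Both strands were searched for 4 patterns. A heat shock element of 3 units, GAANNTTCNNGAA or its complement TTCNNGAANNTTC, was found in 0.603% of the 32851 windows of all genes. Pairs of units, GAANNTTC or TTCNNGAA, which also lie inside every element of 3 units, were found in 15.1%. The ER stress response element, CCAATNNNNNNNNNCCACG, was found in 0.119%, and CCAAT alone, which is also part of that element, in 37.4%. A match is a description of the letters and not evidence of binding.

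In the sequences printed here, capitals mark the heat shock units of Hsph1, Hspa1a and Hspa1b and the ER stress response element of Hspa5. All are written 5′ to 3′ on the strand of the gene, and those of Hsph1 are stretches of 30 bases around a match.
Hsph1, before the start (chr5:149636353-149636382, minus strand): ttgggtagaatctTTCTCGAAggctcgaga
Hsph1, after the start (chr5:149636287-149636316, minus strand): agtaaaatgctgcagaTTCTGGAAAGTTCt
Hspa1a (chr17:34972157-34972306, minus strand): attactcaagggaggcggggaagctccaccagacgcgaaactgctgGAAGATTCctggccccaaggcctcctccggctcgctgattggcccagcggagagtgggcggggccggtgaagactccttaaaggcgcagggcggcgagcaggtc
Hspa1b (chr17:34959239-34959388, minus strand): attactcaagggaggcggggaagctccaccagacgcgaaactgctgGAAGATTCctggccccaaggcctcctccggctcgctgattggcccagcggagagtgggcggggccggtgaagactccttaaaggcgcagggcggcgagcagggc
Hspa5 (chr2:34771940-34772089, plus strand): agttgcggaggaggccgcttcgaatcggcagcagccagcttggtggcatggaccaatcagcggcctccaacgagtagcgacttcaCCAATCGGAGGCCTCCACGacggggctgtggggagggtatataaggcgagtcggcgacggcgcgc

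Of the 7 members with a window, Hsph1 held the element of 3 units, which began 37 bases after the first of its starts, and a pair of units that began 33 bases before it. Its 2 starts lay 21 bases apart, and the gene model reached farther upstream, to position 149636498 of chromosome 5. Hspa1a and Hspa1b each held a pair of units that began 104 bases before the start and a CCAAT box that began 67 bases before it. The 150 bases before their starts were the same at 149 positions, and the starts lay 12918 bases apart on chromosome 17. Hspa5 held the ER stress response element, which began 65 bases before its start, and 4 CCAAT boxes, of which 1 was part of that element. Dnaja1 held a pair of units before the first of its 3 starts. The windows of Hspa4 and Dnajb1 held none of the letters of a heat shock pair, which says nothing about sites outside these windows.

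**Figure D1:**
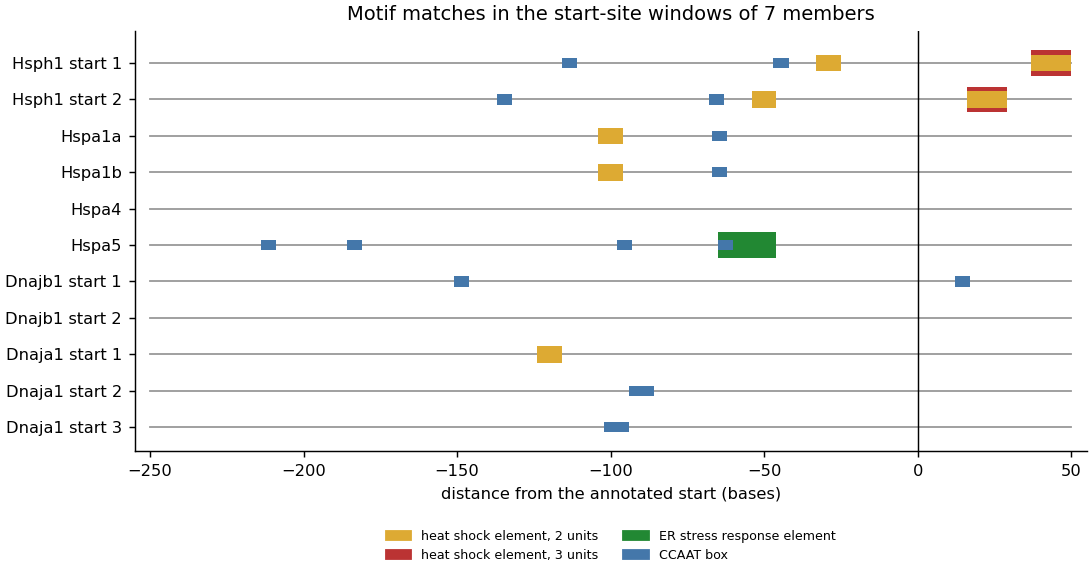
Positions of motif matches on either strand in 11 start-site windows of 7 heat shock protein genes, with distance from the annotated start in bases on the horizontal axis. The 3-unit heat shock element was found in the Hsph1 windows, after the start, and the ER stress response element in the Hspa5 window, before the start.

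Signals are in the arbitrary units of the array software, which scaled every array to the same trimmed mean of 150.001. The median signal of an array lay between 18.1 and 28.9. Control replicate 5 stood apart from the other arrays. Its correlations to the other control arrays averaged 0.926, and it had the largest 3′ to middle ratio of the Gapdh and Actb control probe sets. On the log2 scale its ratio was 5.24, where the other 9 arrays lay between 1.73 and 3.87. This ratio, a measure of RNA integrity and amplification, was 2.97 ± 1.42 in controls and 3.16 ± 0.60 in Mll-deficient samples (SD, n = 5 each, two-sided exact permutation p = 0.810). The targeted gene Kmt2a did not pass the test on either of its probe sets, at 260 ± 85.8 against 216 ± 97.2 and 74.7 ± 22.1 against 49.7 ± 32.0 (control against Mll-deficient, SD, n = 5; limma adjusted p = 0.736 and 0.498), and whether these lie in the deleted part is not known here. Of the sort markers, Kit read between 27.7 and 181 and Cd48 between 44.1 and 197 over the arrays, and Ly6a, which encodes Sca-1, had no probe set with a single symbol. The neutrophil genes S100a8 and Ngp read at least 17415 and 16441 on every array. Over the 13 measured granulocyte and monocyte markers, 0 passed in limma (adjusted p over all genes). Of 15 measured erythroid markers 9 rose in Mll-deficient samples, among them Klf1 and Gata1, beside 3.76% of all tested genes called higher. The summed signal of these 15 was between 6100 and 9577 in controls and between 18420 and 20230 in Mll-deficient samples. Of 10 measured stem cell markers 0 rose and 2 fell, beside 1.76% of all tested genes called lower. Mecom fell from 461 ± 208 to 57.9 ± 51.1 and Hlf from 1002 ± 512 to 336 ± 170 (SD, n = 5 each, limma adjusted p = 6.58e-04 and 0.0384). The list median was -0.70. The summed signal of these 10 was between 3545 and 8452 in controls and between 2138 and 4374 in Mll-deficient samples. No measured marker of either list was listed at 0 on any array. The part of these differences in the results on heat shock genes was not tested.

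Hsph1 rose in Mll-deficient cells, and it was the only one of the 9 tested members to pass. Its signal was 2.41-fold higher on the scale of log2(signal + 16). The other 8 did not pass (limma, adjusted over all genes), although all 9 had a difference above 0. Genes called in either direction made up 5.52% of the 12580 tested, with 3.76% called higher and 1.76% lower, so 1 of 9 members is near the background. The median difference of the 9 members was 0.38 on the log2 scale, beside -0.04 over all tested genes, of which 46.6% were above 0. Without Mll-deficient replicate 5 the median of the members was 0.18, without control replicate 2 it was 0.22, and without control replicate 5 it was 0.53. All 9 were tested, because the brightest probe set of each passed the filter on dim signals.

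Among the 27 probe sets, 25 passed the filter, 1 was called higher and 0 lower in a fit over all 27022 probe sets, where 3.28% were called in either direction and 2.12% higher. Of these 25, 22 had a difference above 0, which held for 42.9% of all tested probe sets. At an unadjusted limma p under 0.05 stood 8 of the 25, beside 18.3% of all tested probe sets. The median over the 25 was 0.37. The groups did not overlap on 4 of the member probe sets, those of Hsph1 and 1 each of Hspa8 and Hsp90aa1, beside 5.68% of all tested probe sets. Probe sets of a gene share its transcripts and are not independent.

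**Figure D2:**
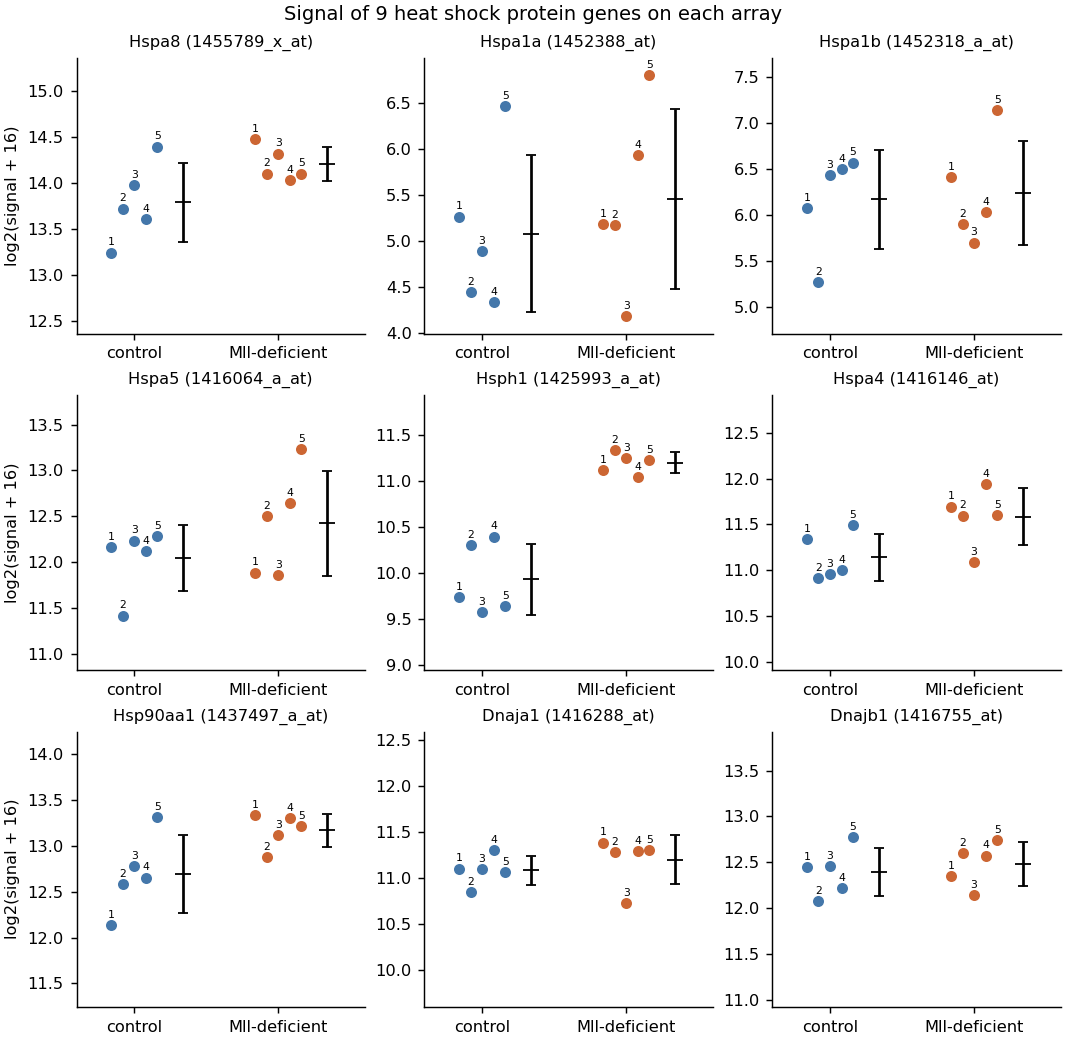
Signal of the brightest probe set of each of 9 heat shock protein genes as log2(signal + 16), with 1 numbered point per array and the mean ± SD of each group of 5 arrays. The Hsph1 points of the groups do not overlap, and each of the other panels shows overlapping groups.

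Hsph1 encodes Hsp105, an Hsp110 protein that releases ADP from Hsp70 and can itself hold unfolded proteins. On its brighter probe set, 1425993_a_at, controls 1 to 5 read 837, 1252, 748, 1331 and 780. The Mll-deficient samples 1 to 5 read 2212, 2579, 2427, 2102 and 2391. The lowest Mll-deficient array was above the highest control, which at the level of genes held for no other member, beside 6.96% of all tested genes whose groups did not overlap and 4.42% that did not overlap and were higher in Mll-deficient samples. The means were 990 ± 279 and 2342 ± 188 (SD, n = 5 each), which differ by 1.27 ± 0.21 on the log2 scale (SE, limma adjusted p = 0.00241), with a 95% interval from 0.83 to 1.71. In order of p, Hsph1 was number 66 of the tested genes, and in order of size of rise number 141. A second probe set, 1423566_a_at, was dim. It read 7.30, 16.9, 20.9, 18 and 14 in controls and 26.5, 33.8, 64.3, 21.2 and 42.7 in Mll-deficient samples. The groups did not overlap on this probe set either, but its difference of 0.74 ± 0.25 did not pass over all probe sets (SE, adjusted p = 0.112). The values lay near the array medians, where the offset of 16 understates a change.

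The call of Hsph1 was kept under each of the 12 alternative settings, with differences between 1.003 and 1.33, and in each of the 10 fits that left out an array, with differences between 1.18 and 1.39 and a highest adjusted p of 0.0102. Without control replicate 5 the difference was 1.20 (adjusted p = 0.00249).

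Hspa4, the other Hsp110 gene of the set, encodes a constitutive exchange factor of the cytosol. Its brightest probe set read 2584, 1916, 1975, 2030 and 2858 in controls. In Mll-deficient samples it read 3298, 3080, 2168, 3914 and 3097. Mll-deficient replicate 3 lay among the controls and the other 4 lay above them. The difference of 0.44 ± 0.20 (SE, adjusted p = 0.224) had an interval from 0.01 to 0.87 and did not pass. Its other probe sets above the filter differed by 0.08 ± 0.37 and 0.13 ± 0.29 (adjusted p = 0.940 and 0.864), and a further one, at most 22 on any array, lay below the filter.

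The log2 ratio of Hsph1 to Hspa4 on the same array averaged -1.21 ± 0.58 in controls and -0.39 ± 0.39 in Mll-deficient samples (SD, n = 5 each), and the groups overlapped. The pair was chosen after the values had been seen and its numerator is the member that rose, so the ratio in part restates that rise and is given with no test.

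Among the Hsp70 genes, Hspa8 encodes Hsc70, the constitutive cytosolic chaperone that also uncoats clathrin vesicles. Its brightest probe set, 1455789_x_at, read 9651, 13478, 16086, 12464 and 21512 in controls. The Mll-deficient samples read 22820, 17543, 20416, 16704 and 17538. Control replicate 5 reached into the Mll-deficient range, and the other controls lay below it. The means of 14638 ± 4480 and 19004 ± 2556 (SD, n = 5 each) gave a difference of 0.42 ± 0.21 (SE, adjusted p = 0.275, interval from -0.03 to 0.86). Without control replicate 5 it was 0.57 ± 0.17, with an adjusted p of 0.0482, in a fit that called 6.96% of all tested genes. It did not pass in 9 of the 10 fits without an array, nor under any of the 12 alternative settings. Without control replicate 1 it was 0.28 ± 0.21 (adjusted p = 0.522).

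The other Hspa8 probe sets pointed the same way without passing. They differed by 0.24 ± 0.19 (1420622_a_at), 0.40 ± 0.23 (1420623_x_at) and 0.60 ± 0.21 (1431182_at), with adjusted p of 0.544, 0.368 and 0.139. On 1431182_at the controls read 86.9, 99.0, 80.7, 71.3 and 74.4. The Mll-deficient samples read 107, 168, 160, 127 and 109, so the groups did not overlap. Probe set names that contain _x_ or _s_ mark probes that can also match other sequences, which holds for a pair of the Hspa8 sets.

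Hspa1a and Hspa1b encode nearly the same protein, the cytosolic Hsp70 that is made chiefly after stress, and RNA of either may bind the probes of both. All of their probe sets were dim. Hspa1a read 22.5, 5.74, 13.7, 4.18 and 72.4 in controls and 20.3, 20.0, 2.09, 45.3 and 95.9 in Mll-deficient samples. Replicate 5 was the highest of either group, and the rest of the arrays overlapped. The difference of 0.37 ± 0.45 (SE, adjusted p = 0.695) had an interval from -0.57 to 1.32, which leaves a wide range of changes possible. The brightest Hspa1b probe set, 1452318_a_at, read 51.5, 22.7, 70.8, 74.8 and 79.1 in controls and 69.3, 43.8, 36.0, 49.6 and 126 in Mll-deficient samples. Its groups overlapped, and the difference of 0.07 ± 0.31 (adjusted p = 0.932) had an interval from -0.59 to 0.72. The other Hspa1b sets differed by 0.21 ± 0.30 and -0.06 ± 0.31 , without passing (adjusted p = 0.765 and 0.945).

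Hspa5 encodes BiP, the Hsp70 of the ER lumen, which binds nascent secretory proteins and holds the sensors of the unfolded protein response inactive. Its brightest probe set, 1416064_a_at, read 4584, 2723, 4808, 4432 and 4982 in controls. In Mll-deficient samples it read 3774, 5787, 3707, 6375 and 9588. Mll-deficient replicates 1 and 3 lay below 4 of the controls while 2, 4 and 5 lay above all of them. The difference was 0.38 ± 0.26 (SE, adjusted p = 0.450, interval from -0.18 to 0.93). It was 0.18 without Mll-deficient replicate 5, 0.22 without control replicate 2, and 0.14 when all Hspa5 probe sets were averaged (adjusted p = 0.771, 0.682 and 0.787). A dimmer probe set, 1427464_s_at, differed by 0.42 ± 0.29 (adjusted p = 0.474), with the same 3 Mll-deficient arrays highest. On 1447824_x_at the difference was -0.39 ± 0.27 (adjusted p = 0.488): control replicate 5 read 3141 there, and the other controls between 1016 and 1608.

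Hsp90aa1 encodes the stress-inducible cytosolic Hsp90 and was covered by 5 probe sets. The brightest, 1437497_a_at, read 4491, 6100, 7018, 6423 and 10182 in controls. In Mll-deficient samples it read 10298, 7502, 8857, 10071 and 9490. As for Hspa8, control replicate 5 lay within the Mll-deficient range and the other controls below it. The difference was 0.47 ± 0.21 (SE, adjusted p = 0.209, interval from 0.03 to 0.92). Without control replicate 5 it was 0.63 ± 0.17 (adjusted p = 0.0344), and with the 3′ to middle ratio as a covariate 0.43 ± 0.13 (adjusted p = 0.0438). The fit with this covariate called 12.8% of all tested genes, and the fit without control replicate 5 called 6.96%. Hsp90aa1 did not pass in 9 of the 10 fits without an array, nor under 11 of the 12 alternative settings. Without control replicate 1 its difference was 0.34 ± 0.21 (adjusted p = 0.425).

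On 1426645_at, Hsp90aa1 read 2575, 4035, 4887, 5021 and 3786 in controls and 8287, 4034, 7687, 7694 and 6413 in Mll-deficient samples. Mll-deficient replicate 2 was level with the controls and the other 4 were above all of them. This difference of 0.74 ± 0.24 (SE) did not pass either, with an adjusted p of 0.0979 over all probe sets, and without Mll-deficient replicate 2 it was 0.92 (adjusted p = 0.0355). It did not pass in 9 of the 10 fits without an array, and without control replicate 1 it was 0.59 (adjusted p = 0.223). On 1438902_a_at the groups did not overlap, with 2835 to 3732 in controls and 3767 to 6523 in Mll-deficient samples, a difference of 0.55 ± 0.20 (adjusted p = 0.140). Its remaining probe sets read at most 35.2 on any array and differed by 0.06 ± 0.24 and 0.13 ± 0.22 (adjusted p = 0.932 and 0.872, the latter below the filter and from the fit without one).

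Dnajb1 encodes Hsp40, the J-domain partner of stress-induced Hsp70. Its brighter probe set, 1416755_at, read 5579, 4308, 5600, 4748 and 6981 in controls. The Mll-deficient samples read 5214, 6182, 4500, 6078 and 6857, within the range of the controls. The difference was 0.09 ± 0.19 (SE, adjusted p = 0.847, interval from -0.32 to 0.49). A dimmer probe set of the same gene, 1416756_at, read 216, 271, 182, 189 and 68.9 in controls and 343, 313, 371, 227 and 276 in Mll-deficient samples. Its difference of 0.76 ± 0.29 did not pass (adjusted p = 0.160), but did with the 3′ to middle ratio as a covariate (0.84, adjusted p = 0.0106). Without control replicate 5 the difference was 0.48 ± 0.22 (adjusted p = 0.243). Control replicate 5, the array with the highest such ratio, read the lowest there and the highest on the brighter set.

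Dnaja1 encodes a J-domain protein that carries newly made and mitochondrial proteins to Hsc70. Its brightest probe set read 2187, 1829, 2173, 2514 and 2133 in controls and 2662, 2481, 1677, 2499 and 2522 in Mll-deficient samples. The groups overlapped, with Mll-deficient replicate 3 the lowest array of all. The difference was 0.12 ± 0.19 (SE, adjusted p = 0.783, interval from -0.28 to 0.51), and the other probe sets stood at -0.35 ± 0.30 and 0.18 ± 0.25 (adjusted p = 0.587 and 0.760). Rises of more than 0.51 for Dnaja1 and 0.49 for Dnajb1 on these brighter sets lay outside the 95% intervals.

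**Figure D3:**
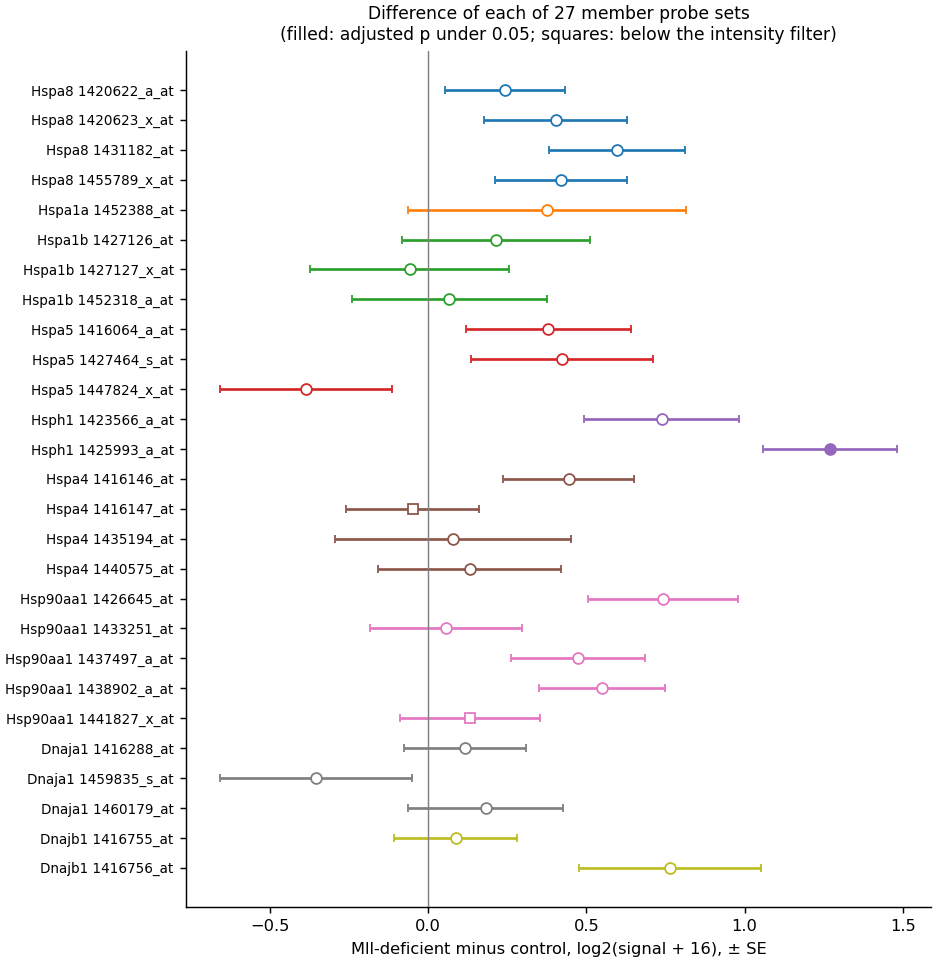
Difference between 5 Mll-deficient and 5 control arrays for each of 27 probe sets of 9 heat shock protein genes on the log2(signal + 16) scale, with its SE; filled circles passed an adjusted p of 0.05 and squares lay below the intensity filter. The filled circle is Hsph1 1425993_a_at at 1.27, and the lowest value is that of Hspa5 1447824_x_at at -0.39.

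Within the groups, the members did not vary as a single block. After each group mean was subtracted, the 36 pairs of the 9 tested members had correlations between -0.59 and 0.91 over the 10 arrays, with a median of 0.36, and 26 were above 0. The highest was between Hspa1a and Dnajb1 (0.91), followed by Hspa8 with Hsp90aa1 (0.87) and Hspa5 with Dnajb1 (0.83). Those of Hsph1 with Dnajb1, Hspa1a and Hspa4 were the lowest, at -0.59, -0.51 and -0.48. Every pair with Hsph1 was below 0, the nearest to 0 being that with Dnaja1 (-0.06), so all 26 pairs above 0 were among the other members. Among those other members, only Hspa8 with Dnaja1 (-0.14) and Hspa8 with Hspa5 (-0.16) were below 0. The mean of the 9 members was highest in replicate 5 of either group, at 0.41 and 0.38 above its group mean, and lowest in control replicate 2 and Mll-deficient replicate 3, at -0.31 and -0.40. Deviations were not scaled, so the dim and variable Hspa1a and Hspa1b weigh heavily in this mean. Hspa1a read 72.4 and 95.9 in control and Mll-deficient replicate 5, and 2.09 in Mll-deficient replicate 3. The arrays share scaling and RNA quality, and control replicate 5 and Mll-deficient replicate 5 also had the highest 3′ to middle ratio of their groups (5.24 and 3.87). The part of RNA quality in this pattern was not tested. The genes whose deviations followed the mean of the members most closely were Cacna1d (r = 0.96, rho = 0.89), Nup155 (0.96 and 0.93), Cacul1 (0.95 and 0.94), Septin2 (0.94 and 0.90) and Neurl2 (0.94 and 0.93), over 10 arrays, and none of these 5 passed the test between the groups (limma adjusted p between 0.332 and 0.961). They were picked as the highest r among all tested genes that are not members, so their values are description only.

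Other genes of the chaperone cycle were taken from lists. Of 75 listed genes, 67 were tested, 7 rose, 0 fell and 60 did not pass, which is 10.4% called beside 5.52% of all tested genes. The median difference was 0.15, beside -0.04 over all genes, and 45 of the 67 were above 0, beside 46.6% of all tested genes. Fkbp4 (FKBP52, an Hsp90 cochaperone of steroid receptors), Dnaja4 and Hspe1 rose most.

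Fkbp4 rose from 562 ± 146 to 1412 ± 121 (SD, 5 arrays each), by 1.34 ± 0.21 (SE, adjusted p = 0.00204). It was the single call among 16 tested genes of the Hsp90 cochaperone list, whose median was 0.20. This list also held the Hsp90 genes Hsp90b1 and Trap1. Neither of its other probe sets passed, at 0.27 and 0.02 (adjusted p = 0.565 and 0.974). The kinase cochaperone Cdc37 and the ATPase activator Ahsa1 had differences of 0.65 ± 0.46 and 0.33 ± 0.19 (adjusted p = 0.467 and 0.334). The other probe sets of Cdc37 and Ahsa1 stood at 0.20 and -0.01 (adjusted p = 0.81 and 0.99 over all probe sets). Ptges3, which encodes p23, had no probe set with a single symbol.

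Dnaja4, a J-domain gene, rose from 48.2 ± 13.6 to 169 ± 29.99, by 1.54 ± 0.22 (adjusted p = 9.36e-04), and its other probe set stood at 0.35 (adjusted p = 0.484). Dnajc2, a ribosome-associated J-domain protein, rose by 0.70 ± 0.20 (adjusted p = 0.0466), but its other probe sets stood at 0.04 and 0.08. The other 19 of 21 J-domain genes did not pass, and the list median was -0.01.

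Of 11 nucleotide exchange and adaptor genes, 2 rose and 9 did not pass, and all 11 were above 0, with a median of 0.48. Over all tested genes, 3.76% were called higher and 46.6% were above 0. Bag1 and Bag2, which release ADP from Hsp70 as Hsph1 does, rose by 0.72 ± 0.20 and 0.86 ± 0.24 (adjusted p = 0.0491 and 0.0444). Bag3, a stress-induced relative, averaged 42.0 ± 10.2 in control and 72.4 ± 21.6 in Mll-deficient arrays (0.59 ± 0.24, adjusted p = 0.162). The adaptors Stip1 (Hop, which links Hsp70 to Hsp90) and St13 (Hip) had differences of 0.55 ± 0.29 and 0.54 ± 0.23 (adjusted p = 0.291 and 0.182). The other St13 probe sets stood at 0.04 and 0.12 (adjusted p = 0.967 and 0.841 over all probe sets).

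In mitochondria, Hspa9 encodes the Hsp70 of the matrix and Hspe1 the Hsp10 lid of the Hsp60 chamber. Hspe1 rose from 166 ± 23.7 to 625 ± 242, by 1.75 ± 0.25 (adjusted p = 7.93e-04), and its other probe set stood at 0.72 (adjusted p = 0.0849). Hspa9 rose from 1849 ± 424 to 3214 ± 689, by 0.80 ± 0.22 (adjusted p = 0.0425), and its other probe sets stood at 0.73 and 0.94 (adjusted p = 0.137 and 0.0259 over all probe sets). No other Hsp70 or Hsp110 gene of 8 tested passed, and neither did another of the 11 tested heat shock factors, small heat shock proteins and mitochondrial chaperonin genes. Hsf1 had no probe set with a single symbol, and Hsf2 averaged 30.2 ± 5.52 in control and 26.8 ± 10.0 in Mll-deficient arrays (-0.13 ± 0.22, adjusted p = 0.791).

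The calls of Hspa9, Dnajc2, Bag1 and Bag2 did not hold with fewer arrays: 8, 10, 10 and 9 of the 10 fits without an array lost them, with adjusted p up to 0.114, 0.122, 0.137 and 0.0938. Those of Dnaja4, Fkbp4 and Hspe1 were kept in all 10. The count of 7 fell to 3 without control replicates 1, 3 or 4 or Mll-deficient replicates 1, 2, 4 or 5, and to 4 without control replicate 2 or Mll-deficient replicate 3. The share of all tested genes called, 5.52% with all arrays, was 2.9%, 3.11% and 2.97% without control replicates 1, 3 and 4. Without Mll-deficient replicates 1, 2, 4 and 5 it was 3.62%, 5.52%, 4.1% and 2.52%. Without control replicate 2 and Mll-deficient replicate 3 it was 5.99% and 2.89%.

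Around Hspa5, genes of ER folding and the unfolded protein response were near the background. Of 49 listed genes 48 were tested, 2 rose, 0 fell and 46 did not pass, which is 4.17% called beside 5.52% of all tested genes, and the median was 0.01. Some of the 49, among them Hsp90b1 and Hyou1, were also counted among the 75 listed genes of the chaperone cycle. Calr, the calcium-binding lectin chaperone calreticulin, rose from 4149 ± 853 to 6759 ± 1143 (SD, 5 arrays each), by 0.71 ± 0.20 (SE, adjusted p = 0.0465), although its groups overlapped and 8 of the 10 fits without an array lost the call. Neither of its other probe sets, 0.76 and 0.67, passed (adjusted p = 0.0654 and 0.110). Asns, asparagine synthetase, a target of Atf4, rose from 502 ± 113 to 1437 ± 443, by 1.45 ± 0.25 (adjusted p = 0.00397). Its second probe set also passed, at 1.43 ± 0.33 (adjusted p = 0.0256).

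The ER partners of Hspa5 did not pass. Hsp90b1 (Grp94, the Hsp90 of the ER) had a difference of 0.04 ± 0.21 (adjusted p = 0.935), and Hyou1, its Hsp110, of -0.49 ± 0.33 (adjusted p = 0.431). The other probe sets of Hsp90b1 and Hyou1 stood at 0.13 and 0.01 (adjusted p = 0.808 and 0.989 over all probe sets). Of the signalling genes, Atf4 stood at 0.03 ± 0.32, Xbp1 at -0.43 ± 0.18 and Ddit3 (CHOP) at 0.54 ± 0.22 (adjusted p = 0.968, 0.188 and 0.177). Their other probe sets stood at 0.24 for Atf4, between -0.48 and -0.15 for Xbp1 and at -0.03 for Ddit3, and none of them passed. Over the 24 tested genes of signalling and ER-associated degradation the median was -0.20, and over the 24 ER folding genes 0.21.

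Immediate early genes, which respond within minutes to signals and to cell handling, were compared because heat shock genes can respond to handling too. Of 14 tested, 0 rose, 2 fell and 12 did not pass, beside 1.76% of all tested genes called lower. The median of these 14 was -0.50, beside -0.04 over all genes, and 1 of them was above 0, beside 46.6% of all genes. Egr1 fell by 1.46 ± 0.27 and Fos fell by 1.24 ± 0.32 (SE, adjusted p = 0.00654 and 0.0334), the latter with overlapping groups. Egr1 kept its call in all 10 fits without an array, whereas Fos lost it in 6 of them, with adjusted p up to 0.0879 (without control replicates 1, 2 or 4 or Mll-deficient replicates 1, 2 or 3). The signal summed over the 15 listed early genes was 5162 to 11223 in controls and 3852 to 4646 in Mll-deficient samples, and the part of handling in the values of the heat shock genes was not tested.

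**Figure D4:**
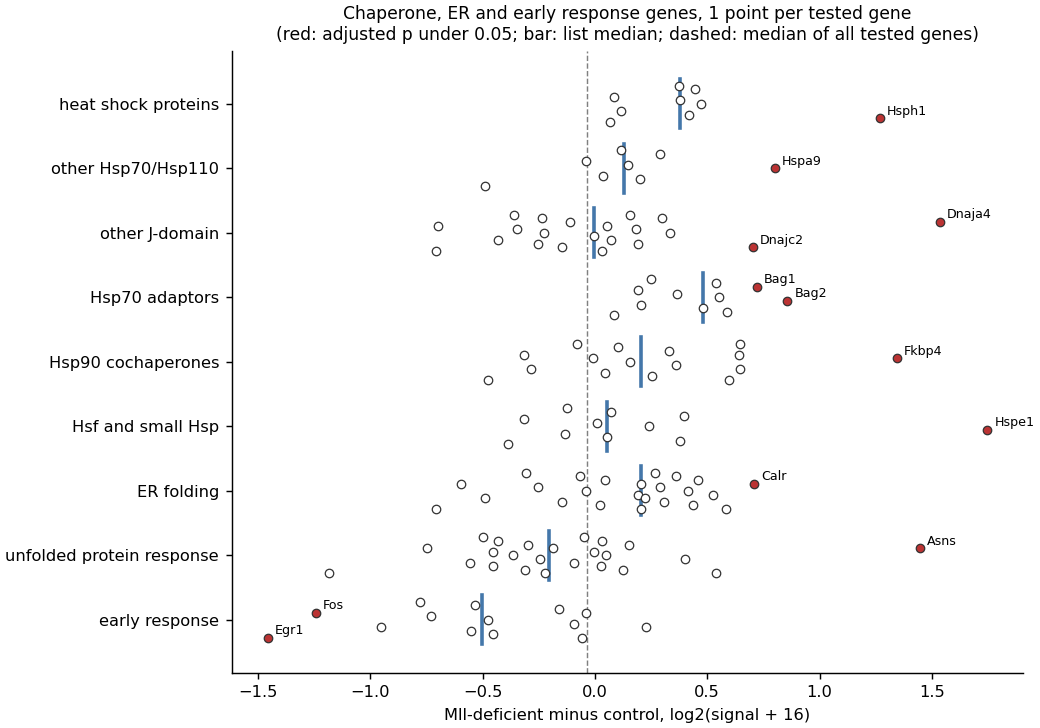
Difference between Mll-deficient and control arrays for each tested gene of 9 lists on the log2(signal + 16) scale, with list medians as bars and the median of all tested genes as a dashed line. Red points passed an adjusted p of 0.05: Hsph1 among the heat shock proteins, 7 other chaperone and cochaperone genes, Calr and Asns to the right of 0, and Egr1 and Fos to the left.

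**Figure D5:**
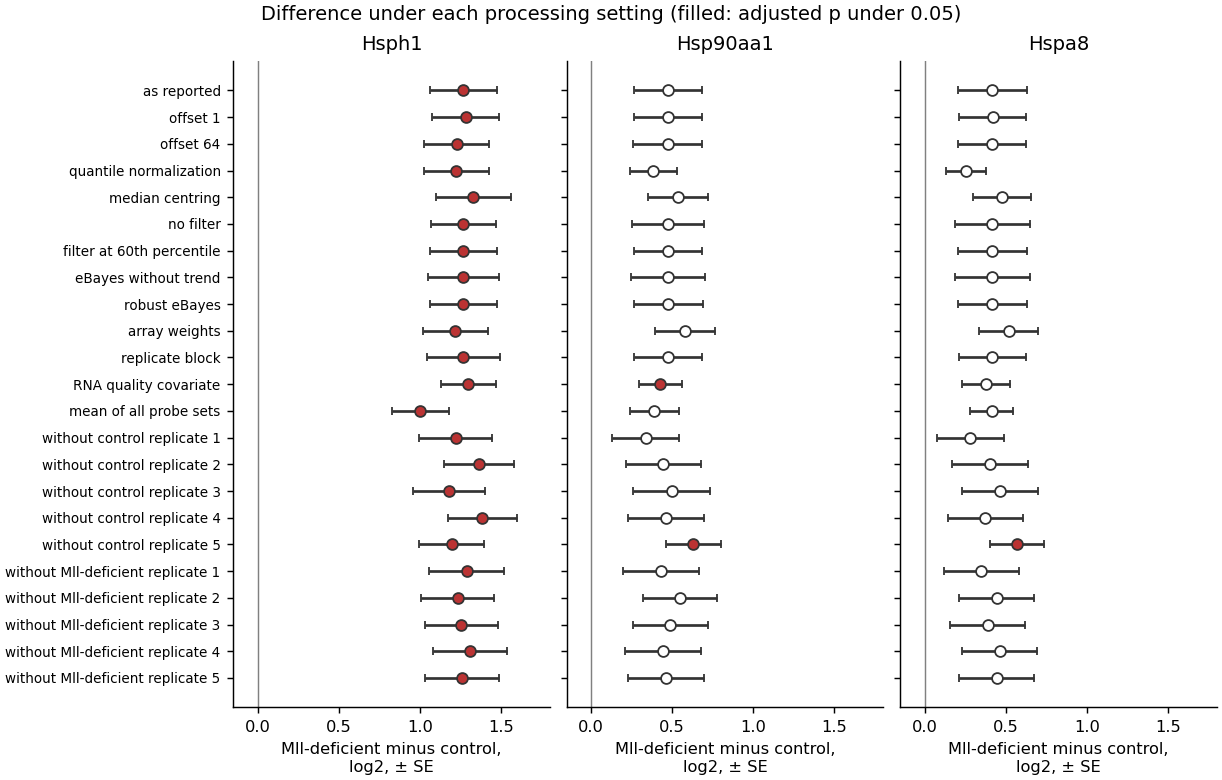
Difference of Hsph1, Hsp90aa1 and Hspa8 with its SE on the log2 scale as reported, under 12 other settings and without each array. All Hsph1 values are filled, which marks an adjusted p under 0.05, whereas those of Hsp90aa1 are filled with the RNA quality covariate and without control replicate 5, and that of Hspa8 without control replicate 5.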

How the data were processed

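The authors deposited a linear signal intensity for each probe set of an Affymetrix mouse array; the submitters' processing notes name MAS5 5.0. Values of 5 Mll-deficient and 5 control arrays, 1 per mouse, were taken as log2(signal + 16), an offset that understates changes of dim genes. Symbols came from the platform annotation, updated through RefSeq (GRCm38.p6); 34945 probe sets had 1 symbol, 932 several and 9160 none. Each of 18193 genes was represented by its brightest probe set, and the 12580 genes (27022 probe sets in the probe set fit) with a mean above the 40th percentile were tested. Differences are Mll-deficient minus control.

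The comparison used limma 3.58.1 under R 4.3.3 (lmFit, then eBayes with trend on), and p-values, all two-sided, were adjusted by Benjamini-Hochberg over all genes or probe sets, with a threshold of 0.05. Every adjusted p comes from this. Alternatives were other offsets, scalings, filters and variance models, a covariate for RNA quality, a replicate block, averaged probe sets and leaving out each array. The procedure was tested on simulated data. The members, lists and tests were chosen with earlier results of these data known. Named were all members, the called genes of each list, a fixed set of partner genes and the 5 genes most like the members. Replicate numbers were not taken as pairs. With 5 arrays a group, their number sets the precision.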

Additional observations from a re-analysis of the deposited data

Results flagged for a closer look

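In 100 groups of 5 arrays examined (27 member probe sets, 22 other named genes and the RNA quality measure, 2 groups each), 6 held an array whose distance from the nearest other exceeded 0.71 of the group's range on the log2 scale, and chance flags about 1 in 20 (5%) of such groups. Among the members, Hspa1b on 1427126_at read 67.7 in Mll-deficient replicate 5 and between 11.9 and 21.1 in the others. Hspa5 on 1416064_a_at read 2723 in control replicate 2 and between 4432 and 4982 in the other controls. Dnaja1 on 1416288_at read 1677 in Mll-deficient replicate 3 and between 2481 and 2662 in the others. Of the other genes, Hyou1 read 1410 in control replicate 5 (488 to 650 in the other controls), Bag1 read 312 in control replicate 5 (441 to 502), and Fos read 305 in control replicate 3 (546 to 653).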

How the results depend on the processing

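The rise of Hsph1 kept its direction and call under all 12 alternatives and without each array. The count of called member genes, 1 as reported, was 2 with the RNA quality covariate and between 1 and 3 when an array was left out (3 without control replicate 5). The fit without control replicate 5 called 6.96% of all tested genes. The count of called member probe sets was 3 with the covariate, and between 1 and 2 without an array. The shares of all probe sets called in these fits are not given here. The count of 7 partner genes was 4 with median centring, 3 with no filter, 4 without the variance trend, 4 with the replicate block and 14 with the covariate (12 of them higher), and between 3 and 5 without an array. Of all tested genes, 5.52% were called as reported. The share was 4.59% with median centring, 2.87% with no filter, 4.86% without the trend and 4.67% with the replicate block. The count of 2 ER and unfolded protein response genes was 1 with no filter, 1 without the trend and 4 with the covariate, and between 1 and 2 without an array. With the covariate, 12.8% of all tested genes were called, and the cause of these changes was not tested. Differences of genes that had not passed changed sign for Dnaja1 with averaged probe sets (-0.019) and for Hspa1b without control replicate 2 (-0.16) and without Mll-deficient replicate 5 (-0.16), whose values without an array ranged from -0.16 to 0.20. Hspa1a was not above the stricter filter. Median centring took the share of higher calls among all called genes from 68.2% to 81.5%, and no scaling moved the median of all genes by over 0.1. Same-numbered arrays had correlations of their deviations between -0.23 and 0.28, the highest for replicate 5, so the replicate numbers were not taken as pairs. Under the replicate block 588 genes were called, beside 694 as reported, Hsph1 among them, and 0 of the 5 control arrays correlated best with their own number.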
